A study of Mus musculus with 14 samples.

Results

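The genes described here are 9 mouse genes grouped as p53 targets of the cell cycle and growth arrest: Cdkn1a, Btg2, Gtse1, Ckap2, Plk2, Plk3, Gadd45a, Sfn and Ddit4l. Not all of their products are themselves inhibitors of the cycle or of growth. They were chosen by name as known targets, with earlier results of these data known, so their counts are not independent of the data. They make up 9 of 21887 protein-coding genes of the mm10 RefSeq annotation. For each gene, the regions listed within the gene and 10000 bp to either side were read from 7 peak lists. The lists come from chromatin immunoprecipitation with sequencing (ChIP-seq) of E14 cells, a mouse embryonic stem cell line kept here on gelatin in 2i and LIF medium, which holds the cells in an undifferentiated state. Doxorubicin, a drug that traps topoisomerase II on broken DNA, was given at 1 µM for 6 h and then washed out for 6 h, so that cells were taken 12 h after the start, and vehicle cells received DMSO on the same schedule.

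Each of the 7 lists was called by the authors on 2 pooled libraries, 14 in all. H3K27ac, the acetylation of histone H3 found at active promoters and enhancers, was profiled in doxorubicin-treated cells and in vehicle cells, and so was H3K9me3, a mark of heterochromatin. A ChIP against the HA tag was made from cells carrying HA-tagged p53 and from untagged cells, and the input chromatin came from doxorubicin-treated cells. No treatment is named in the titles of the HA libraries, so the p53 values carry no comparison between treatments. Both p53 libraries carry replicate number 1 in their titles, so it is not known whether they are separate replicates. Stable lines were selected with drugs, per the labels' protocols, but the promoter of the tagged p53 and the number of clones are not given in the sources used here. Because the libraries of a list were pooled, no value has a replicate check and no test across replicates could be made.

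Fragments left after filtering numbered 17036528 for H3K27ac in doxorubicin and 20647895 in vehicle, 14402634 for H3K9me3 in doxorubicin and 15992125 in vehicle, 45238471 for p53, 49588950 for the untagged ChIP and 16583331 for input. Pileups, the number of fragments stacked at a summit, are given as fragments per 1000000 of these fragments (FPM) where lists are compared. The intervals are exact Poisson intervals for a pileup and exact binomial intervals for a ratio, at 95%, and cover counting error only. The cells carried H3K27ac near all 10 of 10 embryonic stem cell marker genes in both treatments, Pou5f1, Sox2 and Nanog among them. Of 10 fibroblast marker genes, 5 had H3K27ac after doxorubicin and 2 after vehicle. The whole H3K27ac list was also longer after doxorubicin, with 112259 regions against 82177 after vehicle. No share of all genes was counted at the distance used for the markers.

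The transcription factor p53 is stabilized after DNA damage and binds DNA as a tetramer, over a pair of short half-sites, to switch on genes that arrest the cell cycle, repair DNA or kill the cell. Cdkn1a is its best known arrest target, and its product p21 inhibits the cyclin-dependent kinases that drive cells from G1 into S phase. Embryonic stem cells have a short G1 phase and are known for a weak G1 arrest after damage. Acetylation of H3K27 accompanies active promoters and enhancers, whereas H3K9me3 accompanies silenced chromatin.

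Regions of p53 were listed in the windows of 7 of the 9 genes: Cdkn1a, Btg2, Gtse1, Ckap2, Plk2, Gadd45a and Ddit4l. Over all protein-coding genes the share with a p53 region was 25.0%, and among the 11117 genes no longer than Ckap2, the longest of the 9 at 17671 bp, it was 13.9%. Plk3 and Sfn had no listed p53 region. The 7 genes held 11 regions with 13 summits, and none of these regions overlapped a region of the untagged or the input list. Those 2 lists are short, with 3979 and 2236 regions against 11282 for p53. The share of all p53 regions free of such an overlap was not counted, so this sets the 11 regions apart from no others. Of the 13 summits, 9 lay within 1000 bp of an annotated start of their gene. The windows reach only 10000 bp past each gene, and no share of all p53 summits was counted at that distance from a start. p53 pileups are given first on the deposited scale, on which the authors' peak caller had scaled them to the depth of the input.

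The sequences upstream of Cdkn1a and Ckap2 and at the second annotated start of Gtse1 are shown because a p53 summit fell inside them, and that of Gadd45a because it held a match without a summit. Matches to the p53 half-site consensus were sought on both strands as pairs of half-sites of 10 bases, overlapping matches included, with at most 2 mismatches over the 20 bases, the core C and G kept and a spacer of at most 13 bases. Capitals mark the bases of every half-site that takes part in such a pair. The sequences are from RefSeq (GRCm38.p6) and read 5′ to 3′ along the gene's strand. Those of Cdkn1a (chr17:29090729-29090978, plus strand), Ckap2 (chr8:22185820-22186069, minus strand) and Gadd45a (chr6:67037408-67037657, minus strand) are the 250 bases before the start.
Cdkn1a: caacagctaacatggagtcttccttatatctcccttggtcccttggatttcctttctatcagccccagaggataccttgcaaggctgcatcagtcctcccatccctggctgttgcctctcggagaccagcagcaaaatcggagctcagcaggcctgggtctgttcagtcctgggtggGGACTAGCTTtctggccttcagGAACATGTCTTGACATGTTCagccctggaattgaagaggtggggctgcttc
Ckap2: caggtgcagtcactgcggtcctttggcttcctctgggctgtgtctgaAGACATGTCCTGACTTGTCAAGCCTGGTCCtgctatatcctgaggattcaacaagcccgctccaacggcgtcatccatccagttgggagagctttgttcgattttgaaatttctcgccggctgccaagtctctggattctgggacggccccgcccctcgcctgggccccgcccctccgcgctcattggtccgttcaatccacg
Gadd45a: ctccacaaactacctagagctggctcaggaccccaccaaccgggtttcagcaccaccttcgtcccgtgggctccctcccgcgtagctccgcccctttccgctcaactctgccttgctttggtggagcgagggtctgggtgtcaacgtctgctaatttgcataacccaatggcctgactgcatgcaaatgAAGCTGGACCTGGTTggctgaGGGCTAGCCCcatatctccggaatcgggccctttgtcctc
Gtse1 first pair (chr15:85859945-85859964, plus strand): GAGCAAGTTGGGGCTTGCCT
Gtse1 second pair (chr15:85859955-85859975, plus strand): GGGCTTGCCTcTGACTTGCCT

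In Cdkn1a the pair without a spacer, at chr17:29090928-29090947, matched 19 of 20 bases, and its centre lay 2.5 bp from the p53 summit. The more upstream half-site, 12 bases before it, formed a pair that matched 20 of 20 bases and was centred 13.5 bp from the summit. In Ckap2 the pair without a spacer, at chr8:22186003-22186022, matched 18 of 20 bases and was centred 5.5 bp from the summit. The printed pairs of Gtse1 each matched 19 of 20 bases, with centres 4.5 and 15 bp from the summit, and another pair, made of their outer half-sites, matched 18 of 20 and was centred 10 bp from it. Gadd45a differed in this: its pairs matched 18 of 20 bases, but the nearest listed p53 summit lay far away, 8413.5 and 8416 bp from their centres. Of the 11 windows that run from 250 bases before to 50 bases after a start of the 9 genes, these 4 held a pair. Such a pair was present in 4.09% of all 32851 windows of the same 300 bases, and in 38 of the 79 windows with a p53 summit inside (48.1%). In those 38 windows the best pair lay a median of 11.5 bp from the summit, and in 27 of them within 20 bp. The summits of Btg2, Plk2 and Ddit4l lie outside these windows, so their sequences were not searched.

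Cdkn1a (chromosome 17, 29090979 to 29100722, plus strand, mm10) had the highest p53 pileup of the 9 genes and the most summits. Its main summit, at 29090935, lay 44 bp upstream of the upstream start, in a region from 29090508 to 29092240, with a pileup of 512.47 and a deposited fold enrichment of 64.2. A further summit of the same region, 838 bp downstream of that start, had a pileup of 130.5. A separate region 742 bp downstream of the second annotated start had 60.85, and another 6998 bp upstream of the gene had 36.66 with a fold enrichment of 3.42. The strongest and the weakest of these summits therefore differed widely, and the last lay below the median region of the whole p53 list, at 51.3. Beyond the window, the nearest p53 region was 11672 bp upstream of the gene with a pileup of 192.82, higher than all summits inside the window but the main one.

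Gtse1 encodes a microtubule-associated protein of the G2 and S phases that binds p53 and restrains it in human cells. Its single p53 region (chromosome 15, 85859516 to 85860262) had its summit 4 bp downstream of the second annotated start, with a pileup of 337.98 and a fold enrichment of 39.9. Ckap2, which encodes a protein of the mitotic spindle, had a summit 199 bp upstream of its start with a pileup of 270.53 and a fold enrichment of 41.1. It also had one 6684 bp upstream with 118.04, which is nearer to the start of the neighbouring gene Vps36, 330 bp away, than to that of Ckap2. The start of the non-coding gene Gm29878 lies 10 bp from the first of these Ckap2 summits, so neither summit can be assigned to Ckap2 alone.

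Plk2 and Plk3 encode polo-like kinases that respond to stress. The highest p53 summit of Plk2 was not at the promoter but 2154 bp upstream of the start, with a pileup of 211.88, while the summits 97 and 430 bp downstream of the start had 75.51 and 68.18. The nearest p53 region outside the Plk2 window was 373557 bp upstream and reached 958.96, above every summit of the 9 genes. In the Plk3 window the p53 list was empty and the untagged list held 1 region, with a pileup of 23.41, near the start of the neighbouring gene Btbd19. The p53 region nearest to Plk3 was 276430 bp away.

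Gadd45a encodes a small stress protein that inhibits the CDK1 and cyclin B1 kinase. Its only listed p53 summit (chromosome 6, 67029037) lay 8370 bp downstream of the start, past the end of the 2312 bp gene, with a pileup of 103.37 and a fold enrichment of 14.9. No p53 region was listed in the gene body or at its start. Sfn encodes 14-3-3 sigma, which keeps the CDK1 and cyclin B complex in the cytoplasm in human cells. Its window had no p53 region and 1 untagged region with a pileup of 38.79, 3169 bp downstream of the start, and the nearest p53 region was 189881 bp from the gene.

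Btg2 encodes an antiproliferative protein that recruits the deadenylase of mRNA, and Ddit4l an inhibitor of mTORC1 signalling. The p53 summit of Btg2 lay 262 bp upstream of its start with a pileup of 62.32 and a fold enrichment of 9.38. Ddit4l had its summit 395 bp downstream of the start with 85.78 and 12.4. The nearest p53 region beyond the Btg2 window, 21544 bp upstream of the gene, was higher than the one at its promoter, with 291.79.

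**Figure D1:**
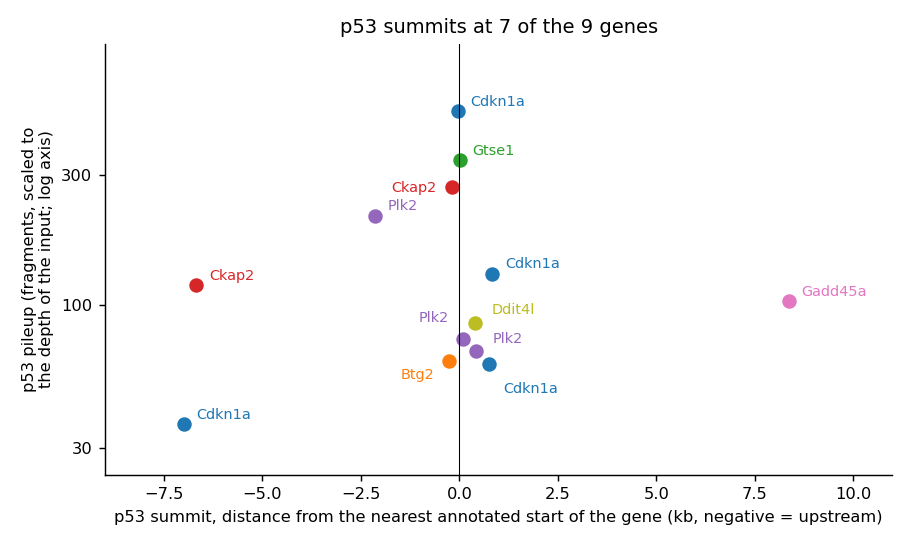
Pileup of the 13 p53 summits (vertical log axis, fragments scaled to the depth of the input) against distance from the nearest annotated start of the gene (horizontal axis, kb). Cdkn1a, Gtse1 and Ckap2 have their highest summits close to a start, at 512.47, 337.98 and 270.53, while that of Plk2 lies 2154 bp upstream and that of Gadd45a 8370 bp downstream.

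Scaled to the fragments of the p53 list, the highest summit reached 30.9 FPM in Cdkn1a (interval 29.3 to 32.6), 20.4 in Gtse1 (19.1 to 21.7), 16.3 in Ckap2 (15.2 to 17.5) and 12.8 in Plk2 (11.8 to 13.9). The counting intervals of these neighbours in the order did not overlap. Gadd45a followed with 6.23 FPM (5.53 to 7.01), Ddit4l with 5.17 (4.53 to 5.88) and Btg2 with 3.76 (3.21 to 4.37). Here Gadd45a and Ddit4l overlapped, while Btg2 lay below both. Among all genes with a p53 region, 95.5% had a lower highest summit than Cdkn1a and 50.1% a lower one than Btg2, so the 7 genes ranged from the middle to near the top of the list. Ranked by fold enrichment, Ckap2 stood above Gtse1.

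H3K27ac was listed in the windows of 9 of the 9 genes after doxorubicin, where the share of all protein-coding genes was 77.4%, and of 9 of 9 after vehicle, where it was 71.9%. No gene had the mark after doxorubicin only (7.38% of all genes) or after vehicle only (1.80%). The 9 windows together held 52 regions over 87910 bp after doxorubicin and 46 regions over 66488 bp after vehicle. The difference was uneven: the Gtse1 window held 15940 bp after doxorubicin and 7261 bp after vehicle, the Sfn window 14008 and 7142 bp, whereas the Plk3 window held 10902 bp after doxorubicin and 14551 bp after vehicle. These lengths depend on how much was called in each list. The whole list held 112259 regions over 107.59 Mb after doxorubicin and 82177 regions over 88.38 Mb after vehicle. The lowest listed pileup was 0.470 FPM after doxorubicin and 0.436 after vehicle.

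The highest H3K27ac summit of the window was at least 1.5-fold higher after doxorubicin in 7 of the 9 genes, against 24.4% of the 15305 genes with the mark in both lists, and at least 1.5-fold lower in 0 of 9, against 9.70%. Among genes with a p53 region and the mark in both lists, 2010 of 4862 were higher and 268 lower. Of the 9 genes, the largest differences were at Plk2, Ddit4l and Gadd45a. Plk2 had 6.16 FPM after doxorubicin and 2.42 after vehicle, a ratio of 2.55 (1.80 to 3.64). Ddit4l had 4.40 after doxorubicin and 1.74 after vehicle, a ratio of 2.52 (1.68 to 3.87). Their intervals lay above 1.5, while over all genes the median ratio was 1.08. Gadd45a had 3.82 after doxorubicin and 1.55 after vehicle, a ratio of 2.46 (1.59 to 3.89), but the summits were different ones: the doxorubicin summit lay 8545 bp downstream of the start, near the p53 summit, and the vehicle summit 596 bp downstream of the start. Within 1000 bp of the start, Gadd45a had 1.94 after doxorubicin and 1.55 after vehicle, a ratio of 1.25.

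Ckap2 had 6.75 FPM after doxorubicin and 4.02 after vehicle, a ratio of 1.68 (1.26 to 2.25). Btg2 had 5.58 after doxorubicin and 3.54 after vehicle, a ratio of 1.58 (1.15 to 2.17), and Gtse1 had 9.27 after doxorubicin and 5.96 after vehicle, a ratio of 1.56 (1.22 to 1.99). At Ckap2 the highest summit stood at −525 bp from the start after doxorubicin and at 125 bp after vehicle, and at Btg2 at 224 bp after doxorubicin and at −375 bp after vehicle, negative positions being upstream. The intervals of these 3 genes excluded equality but included values under 1.5. Cdkn1a, the gene with the most p53, had the lowest ratio of the 9: 6.75 after doxorubicin and 6.05 after vehicle, a ratio of 1.12 whose interval of 0.858 to 1.45 included 1. Its direction turned with the scaling, to a ratio of 0.976 with the authors' fold enrichments and 0.997 with scaling to background coverage. Sfn had 2.47 after doxorubicin and 1.70 after vehicle, a ratio of 1.45 with an interval (0.907 to 2.35) that also included 1.

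The highest H3K27ac level of all was in the Plk3 window, 13.3 FPM after doxorubicin and 8.14 after vehicle, a ratio of 1.63 (1.33 to 2.00). That summit stands at the start of Btbd19 and not at Plk3, where the untagged HA list also held its region. Within 1000 bp of the Plk3 start itself, no summit was listed after doxorubicin and 0.969 FPM was listed after vehicle. Upstream of Plk3 the mark was lower after doxorubicin: 2460 bp from the start it was 0.822 after doxorubicin and 1.94 after vehicle, a ratio of 0.424 (0.213 to 0.796). The count of 7 of 9 therefore takes in a neighbour's promoter at Plk3.

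**Figure D2:**
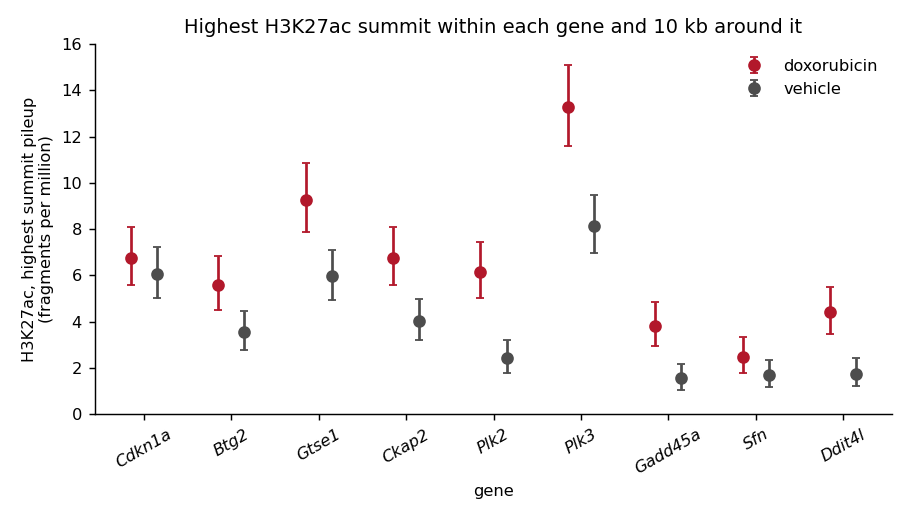
Highest H3K27ac summit in each gene and 10 kb around it (vertical axis, FPM), doxorubicin left of vehicle, with exact 95% Poisson intervals as bars. The gap is widest relative to the vehicle level at Plk2, Ddit4l and Gadd45a. The intervals overlap at Cdkn1a (6.75 after doxorubicin, 6.05 after vehicle) and at Sfn (2.47 after doxorubicin, 1.70 after vehicle). The Plk3 value stands at the Btbd19 start.

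The counts above depend on the scaling. The background coverage implied by the deposited fold enrichments gave H3K27ac ratios 0.894 times those from fragment numbers, a shift of −0.16 on the log2 scale. With that scaling, chosen after the data were seen, 4 of the 9 genes were at least 1.5-fold higher, against 18.0% of all genes, and 0 of 9 were at least 1.5-fold lower, against 16.8%. The ratios of Plk2, Ddit4l and Gadd45a are the 3 that also passed 2-fold under the scaling by fragments.

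At the p53 summits themselves, H3K27ac within 500 bp was listed in both treatments at 13 of 13, against 5070 of all 11889 p53 summits. It was at least 1.5-fold higher after doxorubicin at 11 of the 13, and at least 1.5-fold lower at 0. Over the 5070 p53 summits of the whole list with H3K27ac in both, 73.2% were higher and 1.78% lower by that measure. The share higher among the 9 genes was thus close to that of p53 summits with the mark in both lists. The median ratio was 1.87 for the 13 summits, with a range of 1.12 to 2.81, and 1.96 for all, with quartiles of 1.45 and 2.58. Under the scaling by background coverage, 9 of the 13 were at least 1.5-fold higher, against 64.0% of all.

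The largest ratio stood at the Gadd45a summit downstream of the gene, with 3.82 FPM after doxorubicin and 1.36 after vehicle, a ratio of 2.81 (1.78 to 4.55). The summit upstream of Ckap2, near Vps36, had 3.11 after doxorubicin and 1.26 after vehicle, a ratio of 2.47 (1.52 to 4.12). At the promoter summits of Plk2, which share 1 H3K27ac summit, and at those of Ddit4l, Ckap2, Btg2 and Gtse1, the values are those given above for the highest summit of the window. The Plk2 summit 2154 bp upstream had low acetylation in both lists, 1.29 after doxorubicin and 0.630 after vehicle, a ratio of 2.05 whose interval reached from 0.989 to 4.43. That p53 summit was the highest of Plk2, yet its H3K27ac level was the lowest after doxorubicin of the 13.

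Within Cdkn1a the 4 p53 summits differed in their ratios. At the main summit, 4.17 FPM was listed after doxorubicin and 2.95 after vehicle, a ratio of 1.41 (0.988 to 2.02). At the summit 838 bp downstream, 4.17 was listed after doxorubicin and 2.23 after vehicle, a ratio of 1.87 (1.27 to 2.77), and this interval alone of the 4 excluded 1. The summit 6998 bp upstream had 1.76 after doxorubicin and 0.969 after vehicle, a ratio of 1.82 (0.999 to 3.38). The summit at the downstream start had the most acetylation in both treatments and a ratio of 1.12. The ratio at the main summit was higher than that of 22.6% of the 5070 p53 summits with the mark in both lists, while its p53 pileup was higher than that of 95.2% of all 11889 p53 summits.

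**Figure D3:**
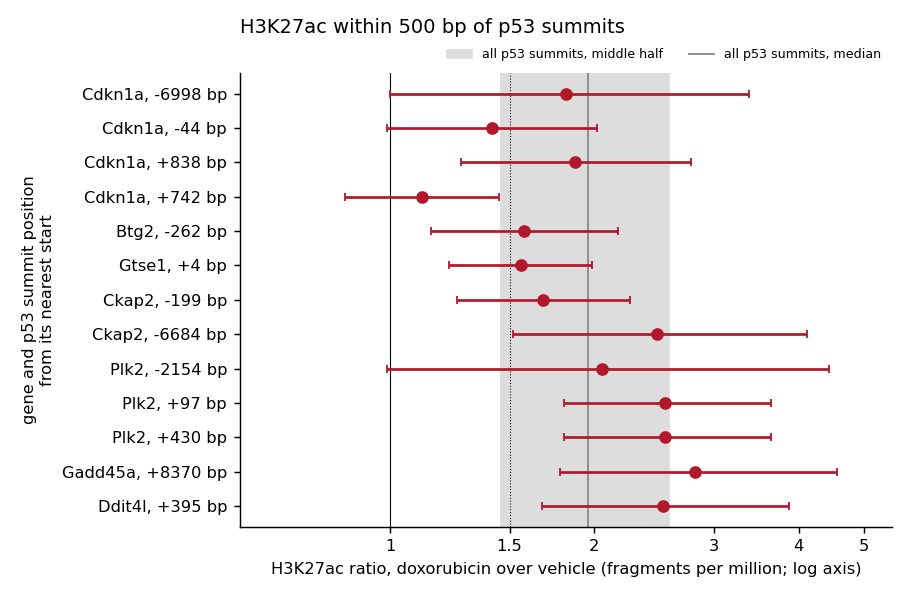
Ratio of H3K27ac, doxorubicin over vehicle (horizontal log axis, FPM), at each of the 13 p53 summits, with exact 95% binomial intervals; the shaded band and grey line show the quartiles and median of all 5070 p53 summits with the mark in both lists. The ratios run from 1.12 to 2.81 and 11 lie above 1.5 (dotted line), with the points spread on both sides of the median of 1.96.

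**Figure D4:**
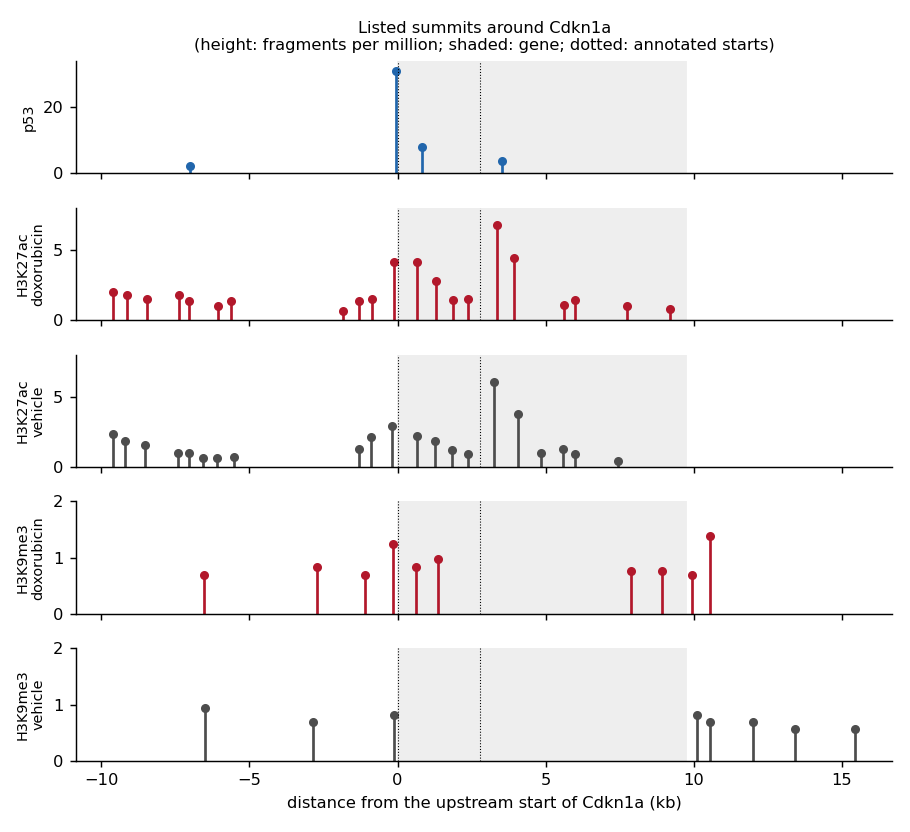
Summits listed around Cdkn1a in 5 lists (height in FPM, horizontal axis in kb from the upstream start; the gene is shaded and its annotated starts are dotted lines). The main p53 summit stands at the upstream start, with H3K27ac there of 4.17 after doxorubicin and 2.95 after vehicle, while the highest H3K27ac summits, 6.75 after doxorubicin and 6.05 after vehicle, lie near the downstream start.

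The same genes were also compared summit by summit, pairing H3K27ac summits of the 2 treatments that were mutually nearest within 250 bp. In the 9 windows, 79 pairs were found, with a median ratio of 1.47. Of these, 37 were at least 1.5-fold higher after doxorubicin, against 24.1% of all 91570 pairs in the genome, and 4 were at least 1.5-fold lower, against 12.5%. The 18 pairs within 500 bp of a p53 summit had a median ratio of 1.74, with 12 higher (66.7%) and 0 lower, whereas all 5978 such pairs in the genome had a median of 1.93, with 71.7% higher and 1.42% lower. The 61 pairs farther away had a median of 1.34, with 25 higher and 4 lower, where 20.8% of all such pairs were higher and 13.3% lower and the median was 1.05. Pairs of 1 window share their chromatin and are not replicates.

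The members differed widely in these pairs. In Gtse1 the largest ratio lay near the other end of the gene, 14875 bp from its p53 summit, with 3.11 FPM after doxorubicin and 0.920 after vehicle, a ratio of 3.38 (1.97 to 6.05). The nearest annotated start to that H3K27ac summit is that of the neighbouring gene Trmu, 4502 bp away, so it cannot be assigned to Gtse1 alone. Of the 8 pairs in the Sfn window, which has no listed p53 region, 5 were at least 1.5-fold higher and the median of the 8 was 1.59. The largest ratio, 2.10, stood at a summit 870 bp from the start of Gm42324, nearer to it than to Sfn. The pair 226 bp upstream of the Sfn start had a ratio of 1.71, with an interval (0.957 to 3.10) that included 1. In the Plk3 window, 4 of 13 pairs were higher and 3 were lower, so Plk3 held 3 of the 4 lower pairs of the set. Cdkn1a had 18 pairs with a median of 1.28, of which 5 were higher and 0 lower.

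**Figure D5:**
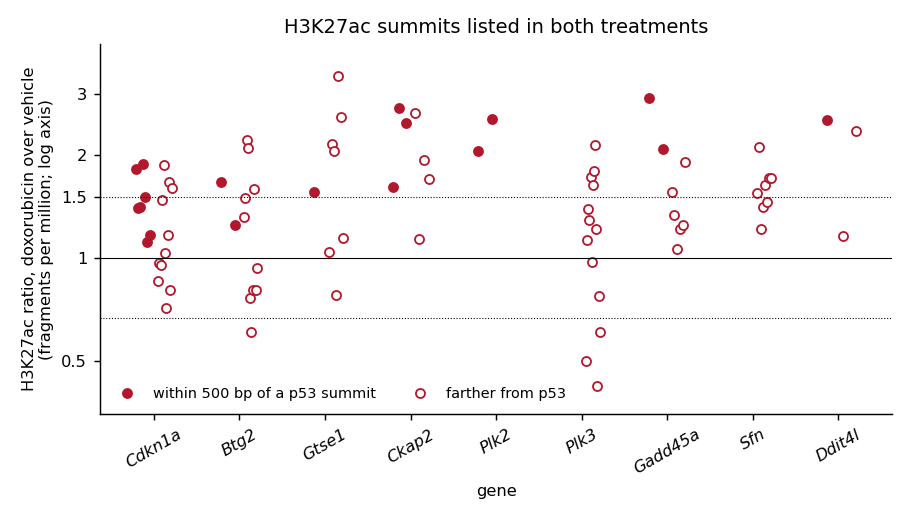
Ratio of H3K27ac, doxorubicin over vehicle (vertical log axis, FPM), for each of the 79 paired summits by gene; filled points lie within 500 bp of a p53 summit and open points farther away, and dotted lines mark 1.5-fold either way. Filled points run from 1.12 to 2.92, while open points reach down to 0.424 in Plk3 and up to 3.38 in Gtse1.

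H3K9me3 was listed in 2 of the 9 windows after doxorubicin, where the share of all genes was 47.6%, and in the same 2 after vehicle, where it was 42.1%. No gene had it after doxorubicin only (8.22% of all genes) or after vehicle only (2.73%). Those were Cdkn1a and Ckap2. The Cdkn1a window held 7 regions in each treatment, over 5792 bp after doxorubicin and 3401 bp after vehicle. Its highest summit had 1.39 FPM after doxorubicin and 0.938 after vehicle, a ratio of 1.48 (0.721 to 3.11), with the summits at different places.

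Near the main p53 summit of Cdkn1a, H3K9me3 stood at 18 fragments after doxorubicin and 13 after vehicle, while H3K27ac stood at 71 fragments after doxorubicin and 61 after vehicle. The histone lists were called without a control, so whether these low H3K9me3 counts exceed the input at this place was not tested. Ckap2 had H3K9me3 inside the gene, with 1.32 FPM after doxorubicin and 1.00 after vehicle, a ratio of 1.32 (0.642 to 2.74). Neither difference was detectable at this depth. Over all H3K9me3 regions in both lists the median ratio was 1.23, or 0.30 on the log2 scale, so both ratios are to be read against that shift. By at least 1.5-fold, 0 of the 2 were higher, against 24.5% of the 8506 genes with the mark in both, and 0 were lower, against 2.06%.

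Among 15 paralogs of the 9 genes, 5 had a p53 region. The highest was at Btg4, with 8.80 FPM, followed by Ywhaz with 2.87, Btg1 with 2.56 and Ddit4 with 2.08. Each paralog named thus had less p53 than Cdkn1a, but Btg4 exceeded Btg2. The median H3K27ac ratio was 1.63 for the 9 genes and 0.939 for the 14 paralogs with the mark in both lists, of which 2 were at least 1.5-fold higher and 2 lower. Plk5 had 1.41 after doxorubicin and 0.581 after vehicle, a ratio of 2.42, and Gadd45b had 4.93 after doxorubicin and 3.24 after vehicle, a ratio of 1.52. Cdkn1b, which encodes the related kinase inhibitor p27, had 3.05 after doxorubicin and 5.09 after vehicle, a ratio of 0.600 (0.422 to 0.845), and Ckap2l had a ratio of 0.438 (0.236 to 0.778).

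Of 27 genes for cyclins, their kinases and inhibitors and the Rb and E2F proteins, 8 had a p53 region, close to the 25.0% of all genes. The highest were Rbl2 with 13.2 FPM and Ccne2 with 11.3. Their median H3K27ac ratio was 0.904 over 25 genes, with 3 at least 1.5-fold higher and 2 lower. Rb1, which encodes the retinoblastoma protein that p21 keeps active, had 4.46 after doxorubicin and 2.37 after vehicle, a ratio of 1.88 (1.30 to 2.75). Ccnb1, which encodes cyclin B1, had 2.64 after doxorubicin and 4.94 after vehicle, a ratio of 0.535 (0.368 to 0.766). Cdk4 was the other lower gene, with a ratio of 0.661 (0.443 to 0.975).

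Of 12 p53 targets that act in apoptosis, 8 had a p53 region, 23.5 FPM at Bbc3 and 23.3 at Trp53inp1 being the highest. Their median H3K27ac ratio was 1.47 over 9 genes, with 4 at least 1.5-fold higher and 0 lower. Pmaip1, which encodes the killer protein Noxa, had 3.23 after doxorubicin and 0.678 after vehicle, a ratio of 4.76 (2.61 to 9.27), above every ratio of the 9 cell cycle and growth arrest targets. Over all protein-coding genes, those with a p53 region had a median ratio of 1.34 and those without one of 1.00.

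The genes most like Cdkn1a across the p53, H3K27ac and H3K9me3 lists, by Euclidean distance of the log2 highest summit in the window, were Zfp870 at 0.257, Rc3h2 at 0.493, Tmprss12 at 0.510, Mgat4e at 0.646 and Syn3 at 0.699. Cdkn1a had 30.9 FPM of p53 and Zfp870 had 32.7, with H3K27ac at Zfp870 of 6.05 after doxorubicin and 5.62 after vehicle. The nearest of the other 8 genes was Ckap2, in place 16. The distance is over 5 pooled lists and describes listed levels only, and a small pseudocount stood in where a list held no region. The order therefore depends largely on whether H3K9me3 was listed. It was listed at the 5 genes named and, of the other 8, at Ckap2 alone. There it rested on 19 fragments after doxorubicin and 16 after vehicle. Ckap2 stood at a distance of 1.09 and the next of the 8, Gtse1, without listed H3K9me3, at 5.21. Place 16 is thus no measure of similar p53 or H3K27ac levels.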

How the data were processed

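ChIP-seq peak lists of 7 groups were used, each called on 2 pooled libraries. Per the submitters' processing notes, Bowtie2 2.2.6 and MACS2 2.2.5 were used. Per the file headers, the build was mm10 with an added contig, fragments were paired, the q cutoff was 0.05, histone and input lists had no control, and both HA lists were called against the input. As signal, the authors deposited the pileup at each summit, which in the HA lists is scaled to input depth. Their q-values were deposited as −log10. Fold enrichment is the ratio of pileup to background that the authors deposited.

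A gene had a region when its interval, extended by 10000 bp, overlapped one by at least 1 bp, and values come from the highest summit inside. Histone and input pileups were whole fragments, and 100% of the scaled HA pileups gave whole fragments within 0.05, which were divided by the fragments of the list. A highest summit is a selected value. Gene positions were those of RefSeq on GRCm38.p6 (mm10), and starts and strands from its promoter sequences, which matched all 9 genes. A sequence search around summits outside the promoter windows was planned but no genome was used here. The counting and the intervals were tested on simulated data. Python 3.11.15, numpy 2.4.6, pandas 2.3.3, scipy 1.17.1 and matplotlib 3.10.9 were used.

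The 9 genes, the context lists and the comparisons were chosen with earlier results of these data known. Named genes were all 9, up to 4 of each context list with the highest p53, up to 3 with the largest and 3 with the smallest H3K27ac ratio past 1.5-fold, and the 5 most like Cdkn1a after a pseudocount of 0.1, leaving out genes that share its p53 region. Neighbouring genes and the genes named as cell type markers were added for position and identity. Alternatives covered the window, stricter regions, the scaling, the summit used and the threshold.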

Additional observations from a re-analysis of the deposited data

How the results depend on the processing

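Of the counts of genes or p53 summits, 56 stayed within 1.5 times the reported value under the alternatives and 8 moved. The count of genes with H3K27ac at least 1.5-fold higher, 7, became 3 with the ratio of the authors' fold enrichments, 3 with the mean over all summits, 3 at a 2-fold threshold and 4 with scaling to background coverage, which was added after the data were seen. Each setting either scales, averages or cuts differently, and the cause was not tested. H3K9me3 was found at 4 genes after doxorubicin and 4 after vehicle within 25000 bp, against 2 in each. Among regions of at least 1 FPM it was found at 1 gene after vehicle, with 1 gene after doxorubicin only. Of these alternative counts, only the one with scaling to background coverage has a share of all genes beside it, 18.0%. The others have no such background here, so they cannot be set against all genes. Of the ratios of single genes, 55 stayed within their counting interval, 3 moved and 2 that were at least 1.5-fold higher reversed: the Gtse1 ratio was 0.991 with the mean over summits, and the Plk3 ratio was 0.909 within 1000 bp of the gene. The Cdkn1a ratio, 1.12 and not called, also fell below 1, to 0.976 with the authors' fold enrichments and 0.997 with scaling to background coverage. The Plk2 ratio was 1.34 with the mean over summits. Gtse1 and Ckap2 exchanged places 2 and 3 in the order by p53 when ranked by fold enrichment or by the sum over regions. The start-centred windows and the other distances from p53 summits were also chosen after the data were seen. No paired analysis was possible because the 2 libraries of every list were pooled, and for the same reason no replicate could be left out. Low pileups limit H3K9me3 most, where the highest summits of the 9 windows rest on 20 fragments or fewer.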
